A study of Homo sapiens with 12 samples.

Results

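BT474 cells that had grown for 9 months in lapatinib were compared with the untreated cells they were labelled as coming from. BT474 is an established human breast cancer line with amplified ERBB2, the gene for the HER2 receptor, and lapatinib inhibits the kinases of HER2 and EGFR. The comparison took the 3 libraries titled Resistant, Month 9 (LR, long-term resistant) and the 3 titled Control, Day 0 (Control), which are 6 of the 12 libraries of the series. The other 6 libraries, 3 of drug-tolerant persisters at day 9 (DTP) and 3 of expanded persisters at month 6 (DTEP), did not enter it. They were used to place genes and gene lists in the series, and in an alternative fit of all 12 libraries. All 12 libraries carry the cell line BT474 and the genotype WT. LR cells received 1 µM lapatinib every 3 days. The treatment field of the Control libraries also reads lapatinib at 1 µM, but their title and time field give day 0, and the study describes them as the untreated starting cells. Of the 26485 genes in the table, 13205 had a normalised read count of 1 or more in at least 3 of the 6 libraries, and these genes are the ones compared.

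HER2 has no known ligand of its own and signals as a partner of EGFR, ERBB3 and ERBB4, mainly into the PI3K and AKT route and the RAS and ERK route. When its kinase is blocked, HER2-driven cells stop dividing and many die, and a small fraction survives and can later divide again. A resistant culture can differ from its parent in signalling, in lineage programmes such as the estrogen response, or in which cells of the starting population it descends from. RNA levels of a bulk culture report all of these together.

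Each library held between 18619398 and 24545527 reads assigned to genes, so that 1 read was worth between 0.0422 and 0.0554 normalised read counts and 3 reads, the floor used for folds against absent genes, at most 0.166. The 3 Control libraries were closely alike, with Pearson's r across genes on log2(normalised read count + 1) between 0.997 and 0.998, and the 3 LR libraries less so, with r between 0.969 and 0.984. Genes are not independent replicates, so these r are descriptions. The median SD over genes was 0.07 in Control and 0.20 in LR on the log2 scale. The study calls its libraries technical replicates from 3 parallel plates, so p-values measure only the spread between these plates. For the label, markers of breast epithelium were read first. EPCAM, an epithelial adhesion molecule, measured 208, 212 and 196 in Control and 275, 237 and 224 in LR, and the keratin genes KRT8, KRT18 and KRT19 were above 250 in all 6 libraries although lower in LR. Of 6 such markers EPCAM and GATA3 were higher in LR at an adjusted p below 0.05 (limma), and the 3 keratin genes and CDH1, which encodes E-cadherin, were lower, with a median log2 change of -1.02. Of 6 leukocyte markers, CD68 alone passed the filter, with at most 2.38 in any of the 6 libraries, and the summed level of all 6 was between 2.25 and 3.59 in Control and between 1.26 and 1.65 in LR. Among these, CD3E had no read in any of the 6 libraries. Of 6 fibroblast markers COL1A1 alone passed, at 53.4, 50.9 and 61.7 in Control and 104, 130.4 and 98.4 in LR. THY1 had no read, and the other 4 had at most 5 reads each over either group. Of 5 endothelial markers VWF alone passed, at 7.77, 7.94 and 8.57 in Control and 0.0422, 0.166 and 0.145 in LR. The summed endothelial level was between 8.19 and 8.85 in Control and between 0.127 and 0.332 in LR. The part of such cells in the results was not tested.

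A gene was called changed when its Benjamini-Hochberg adjusted p from limma was below 0.05 and its log2 change was beyond 2 in either direction, the criteria that the study used. Log2 changes are of the normalised read count plus 1, LR minus Control, with their standard error after ±, and 3 libraries stand in each group. By this rule 693 genes were called higher in LR, 5.25% of the genes tested, and 1074 were called lower, 8.13%. In each of these 1767 genes the 3 LR values lay wholly above or wholly below the 3 Control values, which was also true of 77.6% of all genes tested. By adjusted p alone 9548 genes passed, 72.3%, of which 4694 were higher (35.5%) and 4854 lower (36.8%), and with a log2 threshold of 1 the counts were 2299 (17.4%) and 2649 (20.1%). The change was 10-fold or more in 363 of the genes called higher and 741 of those called lower. Over all genes tested the median log2 change was -0.02, which the scaling of the libraries holds near 0. Each count of list members called higher or lower is to be read against the 5.25% and 8.13% of all genes.

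**Figure D1:**
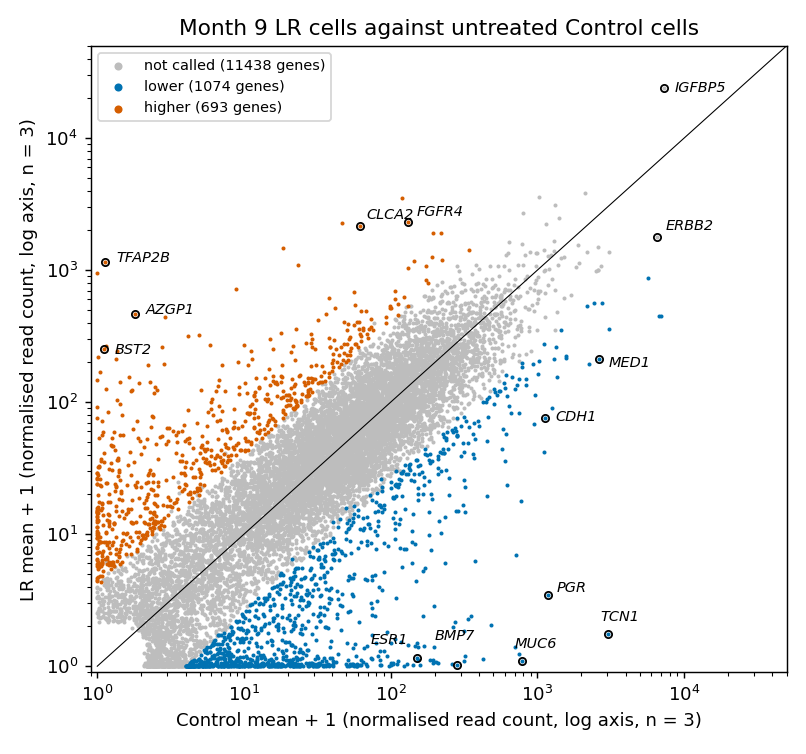
Mean normalised read count plus 1 in the 3 Control libraries (x axis, log) and the 3 LR libraries (y axis, log), one point per gene tested, with 693 genes called higher in orange, 1074 called lower in blue and the rest in grey. Points along the left edge and the lower edge are genes near 0 in one of the groups, and TFAP2B and TCN1 lie farthest from the diagonal.

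The largest rise was that of TFAP2B (chr6:50818355-50847619 on hg38), a transcription factor of the AP-2 family, with 0.184, 0.163 and 0.0466 in Control and 1248, 1119 and 1119 in LR (log2 change 10.01 ± 0.10, adjusted p = 6.42e-08). The Control values amount to 4, 3 and 1 reads, so the gene went from the detection limit to a high level in each LR library. AZGP1 (chr7:99966730-99976031), a secreted glycoprotein of apocrine and prostate epithelium, measured 0.69, 0.924 and 0.792 in Control and 499, 453 and 443 in LR (log2 change 8.01 ± 0.10, adjusted p = 7.73e-08). NR2F1, an orphan nuclear receptor also known as COUP-TF1, measured 0.092, 0.217 and 0.14 in Control and 218, 262 and 313 in LR (log2 change 7.84 ± 0.15, adjusted p = 1.46e-07). The 3 LR values of TFAP2B and AZGP1 lay close together, with log2 ranges of 0.16 and 0.17. Those of NR2F1 lay less close, with a range of 0.52. BHLHE40, a repressor of the circadian clock, measured 1.7, 1.69 and 2.33 in Control and 420.4, 489 and 415 in LR. PLEKHG4, a guanine nucleotide exchange factor, was at 0.276, 0.217 and 0.559 in Control and 227, 173 and 232 in LR. RAPGEF3, a cyclic AMP sensor that activates RAP1, measured 0.552, 0.761 and 0.652 in Control and 122, 164 and 181 in LR. XDH, the xanthine dehydrogenase of purine breakdown, measured 0.322, 0.272 and 0.512 in Control and 337, 339.7 and 55.2 in LR, so that the third LR value was well below the other two but far above every Control value. The other 5 of the 12 largest rises, XIST, BST2, SLFN13, PXMP4 and TMCO1, had at most 3 reads in each Control library and are described with the genes that were switched on. Log2 changes over the 12 genes ran from 6.55 to 10.01.

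The largest fall was that of TCN1 (chr11:59852808-59866487), a secreted vitamin B12 binding protein, with 3007, 2976 and 3128 in Control and 0.591, 0.332 and 1.36 in LR (log2 change -10.79 ± 0.20, adjusted p = 1.37e-07). The LR values were near the detection limit. MUC6, a gel-forming mucin, measured 781, 776 and 809 in Control and 0.0422, 0.0553 and 0.194 in LR (log2 change -9.49 ± 0.09, adjusted p = 6.42e-08). KIF1A, a motor of axonal transport, stood at 746, 709 and 782 in Control and 0.38, 0.111 and 0.242 in LR. The next genes lie in regions described further on. ATP9A, a lipid flippase on chromosome 20, measured 707, 704 and 706 in Control and 0.253, 0.111 and 0.824 in LR. IKZF3, a zinc finger factor that lies beside ERBB2 on chromosome 17, measured 327, 323 and 318 in Control and 0.0845, 0.111 and 0.388 in LR. NRCAM, a neural adhesion molecule, measured 436, 439.8 and 396 in Control and 0.0845, 0 and 0.291 in LR. The last pair belongs to the estrogen response. PGR, the progesterone receptor, measured 1262, 1251 and 1022 in Control and 3, 0.332 and 4.02 in LR (log2 change -8.62 ± 0.47, adjusted p = 7.98e-06). GREB1, an estrogen receptor cofactor and target, measured 489.6, 475 and 477 in Control and 0.591, 0.941 and 1.65 in LR. The remaining 4 of the 12 largest falls, MXRA5, BMP7, PLEKHG4B and CEACAM6, had at most 3 reads in each LR library.

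A change from present to absent was then counted separately, with no test. A gene was taken as switched off when it had a value of 1 or more in each Control library and 3 reads or fewer in each LR library. There were 562 such genes, 259 of them with no read in any of the 3 LR libraries, which together held 63598997 assigned reads, and 183 of the 562 had a Control mean of 10 or more. MXRA5, an extracellular matrix protein, measured 316, 314 and 318 in Control and 0.127, 0.0553 and 0.0969 in LR, a fall of at least 1904-fold against a floor of 3 reads per library. BMP7, a secreted ligand of the TGF-beta family, measured 276, 269 and 297 and then 0.0422, 0 and 0, at least 1691-fold lower. CEACAM6, a cell surface glycoprotein, went from 202, 218 and 212 to 0, 0.111 and 0.0484. PLEKHG4B, a guanine nucleotide exchange factor, went from 253, 254 and 281 to 0, 0 and 0.0969. The innate immune gene NLRP2, the acetyl-CoA synthetase ACSS1, the sulfatase gene ARSD and the matrix peroxidase PXDN complete the 8 with the highest Control means. NLRP2 had 199, 202 and 209 in Control, ACSS1 had 191, 194 and 199, and none of the 4 was above 0.166 in any LR library. Each of these 8 genes was therefore at or below 3 reads in every LR library and above 150 in every Control library.

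By the reverse definition 120 genes were switched on, and 44 of them had no read in the 62288523 assigned reads of the 3 Control libraries. XIST, the noncoding RNA that silences an X chromosome, had no read in Control and measured 1369.6, 183 and 1278 in LR, at least 5785-fold higher, with the second LR library well below the others. Counting ignored strand, so reads of XIST and of its antisense partner cannot be told apart. BST2, an interferon-inducible membrane tether, measured 0.138, 0.0544 and 0.14 in Control and 343, 222 and 197 in LR, at least 1557-fold higher. SLFN13, a ribonuclease, measured 225, 105 and 322 in LR. PXMP4, a peroxisomal membrane protein, measured 206, 146 and 152 in LR. Both had at most 3 reads in each Control library. TMCO1, a calcium channel of the endoplasmic reticulum, had no read in Control and measured 143, 162 and 132 in LR, at least 893-fold higher. TRIM4, a ubiquitin ligase, and ZNF655, a zinc finger protein, both lie on chromosome 7 and had no read in Control. TRIM4 measured 86.6, 102 and 82.6 in LR. ZNF655 measured 87.8, 68.7 and 68.7 in LR. LGALS1, which encodes galectin-1, measured 0.092, 0 and 0.14 in Control and 51.5, 82.6 and 77.8 in LR. Of the 120 genes, 34 had no read in any of the 6 Control and DTP libraries, which together held 115945470 assigned reads, and 16 of those 34 had an LR mean of 10 or more.

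The DTP and DTEP libraries, which the definition did not use, place these genes in the series. Over the 183 switched-off genes with a Control mean of 10 or more, the median level in the DTP libraries was 80.9%, 82.6% and 87.8% of the Control mean. Single genes differed widely there, with quartiles of 43.3% and 140% in the first DTP library, 43.9% and 130% in the second, and 51.9% and 136% in the third. In the 3 DTEP libraries it was 9.34%, 4.02% and 0.389%, with quartiles of 5.28% and 16.2% in the first, 2.02% and 6.52% in the second, and 0 and 0.763% in the third. In 171 of the 183 genes the first DTEP library was the highest and the third the lowest. ARSD shows the order in DTEP, with 189, 189 and 204 in Control and 30.8, 11.1 and 1.12 in DTEP. In DTP it measured 294, 295 and 296, above Control and above the upper quartile. Over the 48 switched-on genes with an LR mean of 10 or more, the median level was 0 in each DTP library. It was 74.6%, 75.1% and 103% of the LR mean in the 3 DTEP libraries. The median of 0 in each Control library was held near 0 by the definition. Of all 120 switched-on genes, 96 were at 3 reads or fewer in each DTP library, and none was at that floor in each DTEP library. TMCO1, for example, had no read in any DTP library and measured 192, 203 and 151 in DTEP.

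**Figure D2:**
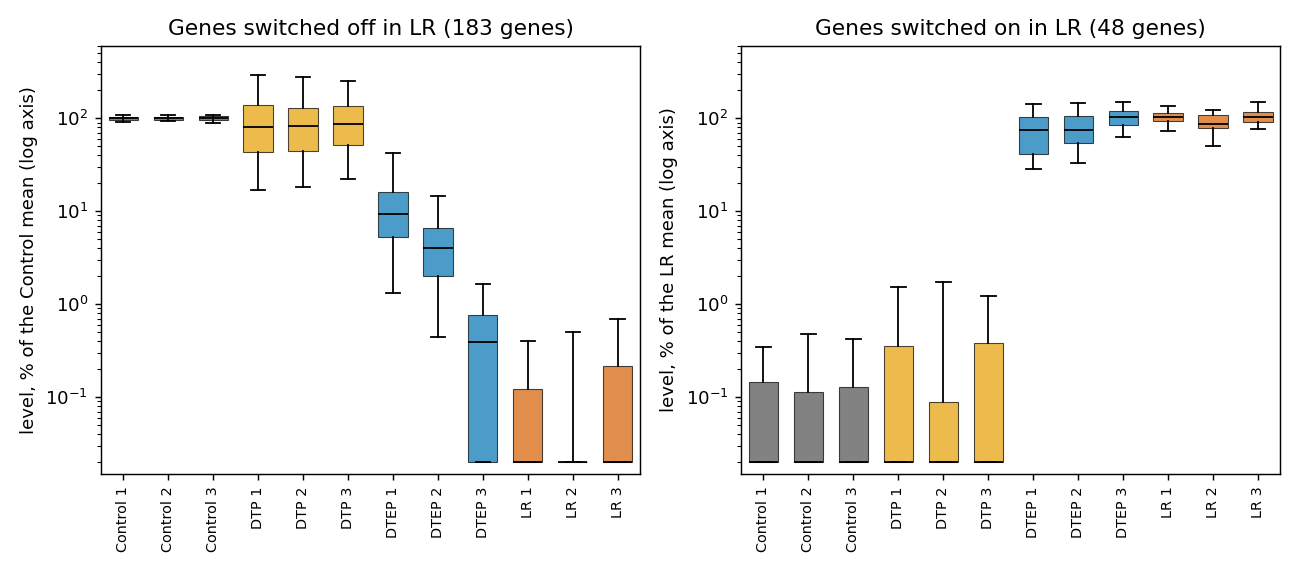
Level of the 183 switched-off genes as a percent of their Control mean (left) and of the 48 switched-on genes as a percent of their LR mean (right) in each of the 12 libraries, on log axes. Boxes give the quartiles, lines the medians and whiskers the 5th and 95th percentiles, and values under 0.02% are drawn at 0.02%. The switched-off genes have medians of 80.9% to 87.8% in DTP and 9.34%, 4.02% and 0.389% in the DTEP libraries. Switched-off genes in LR and switched-on genes in Control were held near 0 by the definition.

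These values are averages over cells. Fewer cells of a type and less RNA per cell cannot be told apart in them, and neither can a change of expression within BT474 cells and a change in which cells the cultures held. No genotype was analysed here, and whether the LR libraries come from the same line as the Control libraries, as the labels give it, was not tested. All changes reported for LR have this limit.

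Among the 4 ERBB receptors, 1 was called higher and 1 lower. ERBB2 measured 6389.8, 6356 and 6833 in Control and 1556, 1897 and 1870.4 in LR, a log2 change of -1.88 ± 0.13 that passed the adjusted p (2.11e-05, limma) but not the threshold on size, and its groups did not overlap. ERBB3, a partner with little kinase activity of its own that couples HER2 to PI3K, measured 377, 378 and 396 in Control and 1113, 1028 and 1131 in LR (log2 change 1.50), so the groups did not overlap although the change was not called. ERBB4 measured 11.5, 11.7 and 9.5 in Control and 214, 123 and 18.3 in LR (log2 change 2.76 ± 0.83, adjusted p = 0.0207). The third LR library stood close to Control, and with any other single library left out the call was lost, at an adjusted p between 0.0534 and 0.0679 and log2 changes between 2.05 and 2.81. EGFR fell from 22.4, 18.9 and 19.8 to 0.338, 0.111 and 0.921 (log2 change -3.91 ± 0.21, adjusted p = 7.41e-06). Of the ligands, TGFA and AREG were called lower, AREG from 10.8, 11.2 and 10.5 to 1.01, 1.99 and 1.16. NRG3 was called higher, from 2.85, 3.59 and 3.31 to 49.4, 29.5 and 65.7. Both TGFA and AREG bind EGFR, and NRG3 binds ERBB4. GRB2, the adaptor that links the receptors to RAS, measured 172, 181 and 171 in Control and 1196, 1042 and 964 in LR (log2 change 2.60 ± 0.10, adjusted p = 1.41e-06). Over the 17 tested genes of the family 3 were called higher and 3 lower, against 5.25% and 8.13% of all genes, and the median log2 change was 0.34, or -0.016 without the third LR library. Without that library TGFA, too, was not called (log2 change -1.84).

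**Figure D3:**
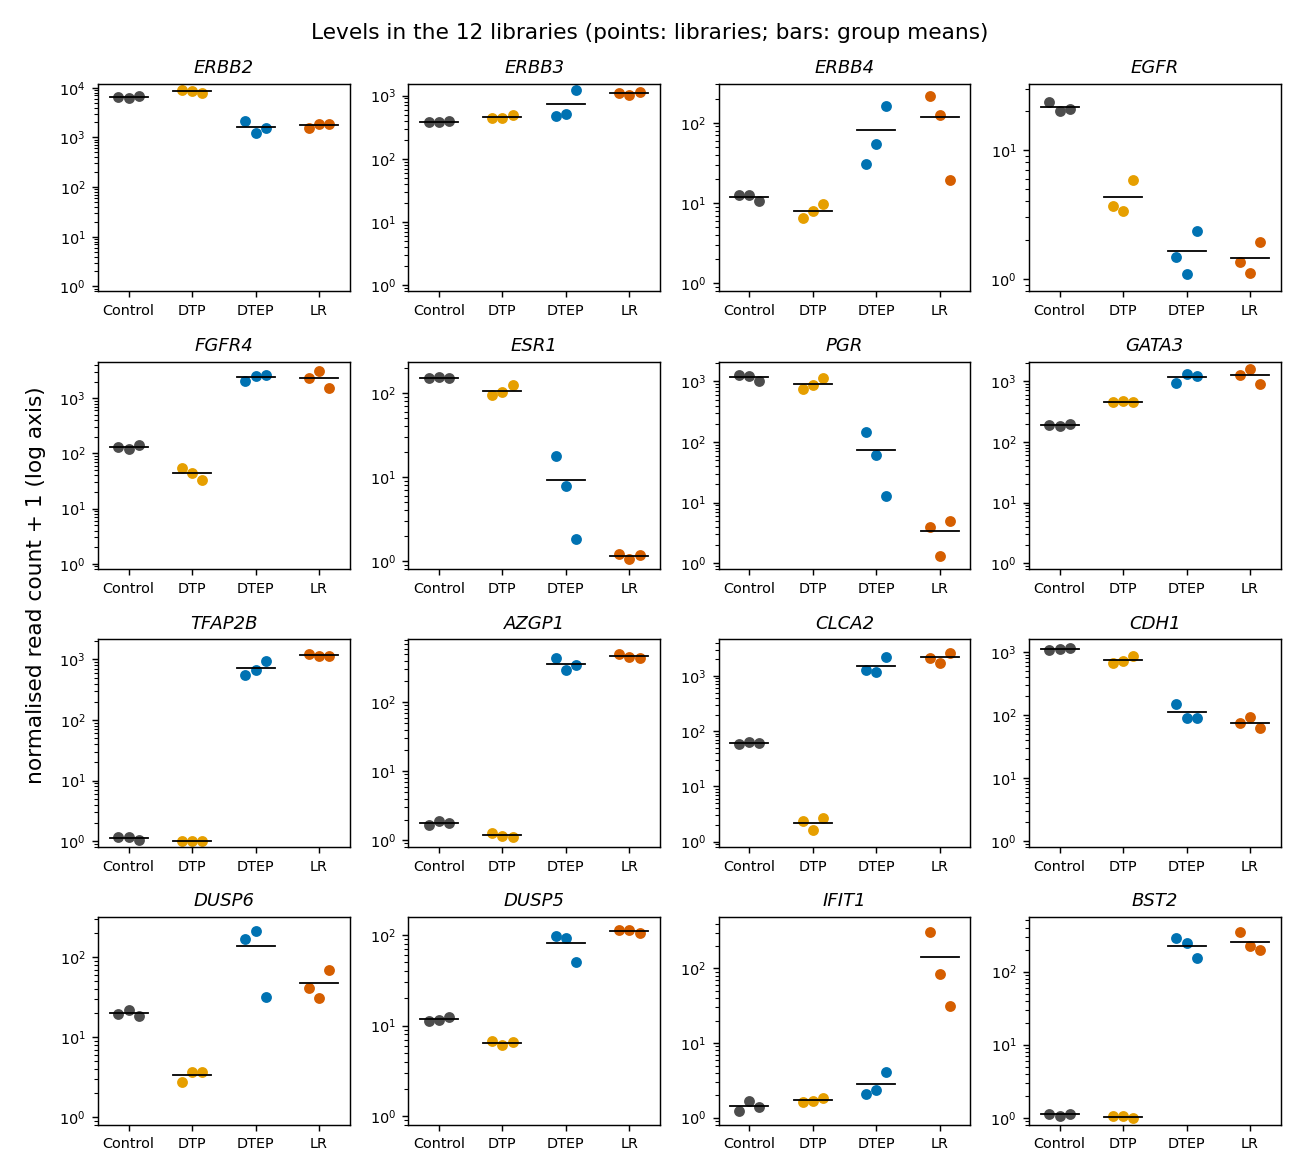
Normalised read count plus 1 (log axes) of 16 genes in the 12 libraries, one point per library and a bar at each group mean. ESR1, PGR, EGFR and CDH1 are low in LR, FGFR4, TFAP2B, AZGP1, CLCA2 and BST2 are high in LR and in DTEP, and IFIT1 is high in LR only among the groups shown.

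Genes that ERK activity is known to induce moved in both directions. The phosphatase DUSP5, which acts on nuclear ERK, measured 10.3, 10.5 and 11.5 in Control and 113, 112 and 105 in LR (log2 change 3.24 ± 0.09, adjusted p = 3.48e-07), and the feedback inhibitors of RAS signalling SPRY1, SPRY4, SPRED1 and SPRED2 were also called higher. SPRY1 measured 6.49, 6.69 and 6.06 in Control and 116, 172 and 76.5 in LR. SPRED2 measured 58, 63.3 and 62.7 in Control and 344, 359.6 and 285 in LR. In neither did the groups overlap, which was true of every called gene. DUSP6, the cytoplasmic ERK phosphatase that the study followed, measured 18.4, 20.8 and 17.2 in Control and 39.7, 30.2 and 68.2 in LR (log2 change 1.17 ± 0.28, adjusted p = 0.00834), above all Control values but not called, and in DTEP it measured 170.3, 211 and 30.5. DUSP4 measured 404, 399 and 403 in Control and 202, 265 and 194 in LR, with a log2 change of -0.88 that was not called. ETV5, an ETS factor often used as an ERK reporter, was called lower, from 8.23, 8.53 and 9.88 to 0.0422, 0.332 and 3.78, but not without the first LR library (log2 change -1.97) or by DESeq2 (-2.72, adjusted p = 0.0726). Of 21 tested genes 5 were called higher (23.8%) and 1 lower (4.76%), against 5.25% and 8.13% of all genes. The list median was 0.74, with median differences to Control of 0.62, 0.06 and 0.89 in the 3 LR libraries, and 4 of the 6 feedback adaptors were among those called higher. Of the 14 other dual-specificity phosphatases tested, DUSP23 alone was called, from 0.092, 0.217 and 0.233 to 16.3, 15.9 and 17.5.

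Other receptor tyrosine kinases changed by large factors in single members. FGFR4 measured 128, 119.8 and 141 in Control and 2341, 3065 and 1559 in LR (log2 change 4.10 ± 0.24, adjusted p = 1e-05). MST1R, the receptor of macrophage-stimulating protein also called RON, measured 6.81, 8.86 and 8.8 in Control and 200.2, 211 and 186 in LR (log2 change 4.46 ± 0.12, adjusted p = 3.48e-07). ROR2, a receptor for WNT5A, rose from 0.046, 0.163 and 0.0466 to 13.4, 17.8 and 12.9. MET, the receptor of hepatocyte growth factor, fell from 89.7, 84.4 and 79.1 to 0, 0 and 0.0484, with 1 read in the 3 LR libraries. MERTK fell from 32.7, 28.9 and 31.5 to 0.0845, 0.111 and 0.291, and FGFR3 and EPHB6 were also called lower. The groups did not overlap for any of these 7 receptors, as was true of every called gene and of 77.6% of all genes tested. EPHB6 was not called without the first LR library (log2 change -1.81) or without the third Control library (-1.97). Over the 20 receptors 3 were called higher (15%) and 4 lower (20%), against 5.25% and 8.13% of all genes, and the median log2 change was -0.30.

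Of 10 genes tested in the insulin-like growth factor axis, 1 was called higher and 1 lower, 10% each. Over all genes the shares were 5.25% and 8.13%. The adaptor IRS4 was the gene called higher and the binding protein IGFBP4 the gene called lower. IRS4, which can recruit PI3K without a stimulated receptor, measured 0.138, 0 and 0.0466 in Control and 35.3, 26.5 and 42.2 in LR (log2 change 5.05 ± 0.18, adjusted p = 1.24e-06). IGFBP4, an estrogen-responsive inhibitor of IGF, measured 277, 281 and 278 in Control and 11.2, 16.5 and 13.9 in LR (log2 change -4.25 ± 0.14, adjusted p = 7.36e-07). IGFBP5, another binding protein, took the largest share of assigned reads of any gene in each of the 6 libraries, at 7141, 7329 and 7489 in Control and 35111, 23822 and 12939.7 in LR. This was 0.705% to 0.743% of the assigned reads in Control and 1.32% to 3.39% in LR, highest in the first LR library. Its log2 change of 1.60 was not called. Neither IGF1 nor IGF2 passed the filter. In the PI3K and AKT list of 26 tested genes, the forkhead factors FOXO1 and FOXO4, which AKT keeps out of the nucleus, were called higher. FOXO1 measured 4.37, 4.95 and 3.87 in Control and 37.1, 43.8 and 43.5 in LR. The lipid phosphatase INPP4B, which removes a PI3K product, was called lower, with 123, 118 and 114 in Control and 4.35, 5.26 and 4.36 in LR (log2 change -4.40 ± 0.10, adjusted p = 2.29e-07). None of the 7 tested kinase genes was called, and the median of the list was 0.29. Of its 26 genes 2 were called higher (7.69%) and 1 lower (3.85%), against 5.25% and 8.13% of all genes. By adjusted p alone 13 were higher and 4 lower.

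Of 19 listed genes tested on 17q12-q21, the region around ERBB2, 15 were called lower and none higher, with a median log2 change of -2.82. Over all genes 8.13% were called lower and the median was -0.02. The list leaves out other genes of the region. In chr17:35000001-40000000, 35 of 63 tested genes were called lower and 3 higher (median -2.12). SLFN13, which was switched on, lies there. In chr17:40000001-45000000, 12 of 91 were called lower and 4 higher (median -0.59). MED1, a subunit of the Mediator complex, measured 2641, 2653 and 2656 in Control and 201, 223 and 206 in LR (log2 change -3.65 ± 0.08, adjusted p = 1.66e-07). The proteasome subunit gene PSMD3 measured 2224, 2193 and 2333 in Control and 148, 205 and 225 in LR. Closer to ERBB2, the cholesterol carrier gene STARD3 measured 653, 632 and 687 in Control and 59, 85.6 and 101 in LR. GRB7, an adaptor on the other side of ERBB2, measured 543, 526 and 571 in Control and 91.5, 113 and 158 in LR. All 4 of these genes had LR values far below Control, with no overlap, as had every gene called lower. ERBB2 itself, with a log2 change of -1.88, was among the 4 genes of the list that were not called. NR1D1, a clock repressor, was the only member above Control, at 2.85, 2.45 and 3.54 in Control and 10.2, 17.9 and 7.27 in LR.

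On 20q13, another region that is amplified in BT474, 17 of the 24 listed genes tested were called lower and none higher, with a median of -2.45. The list does not hold every gene there. In 5 Mb windows, 8 of 20 genes were called lower in chr20:50000001-55000000 (median -1.58). In chr20:55000001-60000000, 11 of 25 were called lower and 2 higher (-1.52). In chr20:45000001-50000000 it was 5 of 38 lower (-0.36), and in chr20:60000001-65000000 1 of 45 lower and 1 higher (-0.28). BCAS1, named for its amplification in breast cancer, measured 659, 705 and 766 in Control and 3.51, 12.3 and 1.99 in LR. NCOA3, a nuclear receptor coactivator, measured 1341, 1350.4 and 1330.2 in Control and 267, 284 and 230.2 in LR. PREX1, a RAC exchange factor, measured 1109, 1099 and 1142 in Control and 48.2, 20.6 and 54.9 in LR. ATP9A and BMP7 lie in the same region and had the largest falls. AURKA, a mitotic kinase, measured 317, 315 and 316 in Control and 28.8, 50.5 and 44.6 in LR. On 17q23, 3 of the 16 listed genes tested were called lower, the clathrin heavy chain gene CLTC, DHX40 and TBX2, and none was called higher. CLTC measured 5708, 5789.9 and 5602 in Control and 831, 1101 and 665 in LR. The kinase gene RPS6KB1, at 326, 332 and 296 in Control and 98.6, 80.7 and 89.2 in LR, was not called. The median of the list was -1.61, and INTS2 and MED13 were the members above Control. Without the second LR library DHX40 was not called (log2 change -1.94), and on 20q13 TFAP2C was not called without the second (-1.99) or the third (-1.998) LR library. Among the listed genes, 18 of 19 around ERBB2, 21 of 24 on 20q13 and 13 of 16 on 17q23 were lower by adjusted p alone. Over all genes the share was 36.8%.

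The same grouping by position was made over the whole genome, in 588 windows of 2 Mb with at least 8 tested genes each, and with no test. The lowest window was chr17:38000001-40000000, which holds ERBB2, with 29 of 36 genes called lower, all 36 below Control and a median of -2.84. Its largest falls were in IKZF3, STAC2 (118, 124 and 124 in Control and 0, 0 and 0 in LR), the noncoding LINC00672 and RPL19. RPL19, a ribosomal protein gene close to ERBB2, measured 7047, 6696 and 7278 in Control and 427, 414 and 510.1 in LR. The second lowest was chrX:2000001-4000000, with 6 of 9 genes called lower and a median of -2.12, where MXRA5, ARSD, ZBED1 and PRKX had the largest falls. PRKX, a protein kinase gene, measured 70, 69.5 and 69.6 in Control and 11.4, 3.98 and 17.2 in LR. ZBED1 measured 62.2, 60.1 and 62 in Control and 8.66, 4.26 and 10.4 in LR. The third was chr17:58000001-60000000, with 13 of 22 genes called lower and a median of -2.12, led by TEX14, PRR11, RAD51C and SMG8. PRR11 measured 474, 448 and 436 in Control and 18, 13.3 and 24.1 in LR. The recombination gene RAD51C measured 139, 141 and 139.8 in Control and 8.15, 5.53 and 9.5 in LR. In both of these windows, too, every tested gene was below Control.

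Of 31 windows with a median above 1, the 3 highest lay on chromosome X and chromosome 1. The highest was chrX:154000001-156000000, where 14 of 31 genes were called higher, all 31 were above Control and the median was 1.91. FUNDC2, a mitochondrial outer membrane protein, measured 15.9, 18.6 and 15.9 in Control and 142, 185 and 141 in LR. TMLHE, the first enzyme of carnitine synthesis, measured 10.2, 10 and 10 in Control and 85.6, 114 and 76.6 in LR. ATP6AP1, an accessory subunit of the vacuolar proton pump, measured 133, 126 and 134 in Control and 953, 1386 and 792 in LR. TAZ, here the tafazzin gene of cardiolipin synthesis and not the YAP partner, measured 13.6, 12.8 and 12.6 in Control and 89.4, 116 and 107 in LR. The next was chrX:108000001-110000000, with 4 of 8 genes called higher and a median of 1.89. Its largest rises were in IRS4, the collagen genes COL4A5 (8.78, 9.68 and 8.62 in Control and 232, 153 and 419.7 in LR) and COL4A6, and a gene with only a LOC symbol. The third was chr1:222000001-224000000, with 3 of 13 genes called higher and a median of 1.54, SUSD4 (5.89, 6.85 and 7.08 in Control and 74.4, 55.6 and 44.1 in LR), MIA3 and DISP1 being called and CAPN2 not. Taken over whole chromosomes, the median log2 change was highest on chromosome 22 (0.75) and lowest on chromosome 7 (-0.70). The share called lower was highest on chromosome 20 (16.7%), followed by chromosome 21 (14.1%) and chromosome 17 (13.2%). Copy number was not analysed here.

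Of 22 tested estrogen response genes 14 were called lower and none higher, and by adjusted p alone 18 were lower and 3 higher. ESR1, which encodes estrogen receptor alpha, measured 150.3, 153 and 149 in Control and 0.211, 0.0553 and 0.194 in LR (log2 change -7.04 ± 0.11, adjusted p = 1.01e-07), and 13 of 21 tested targets were called lower with it. TFF1, a secreted trefoil peptide and standard estrogen target, measured 354, 339 and 367 in Control and 0.465, 2.99 and 0.727 in LR (log2 change -7.36 ± 0.36, adjusted p = 4.8e-06). AGR3, SUSD3 and the chemokine gene CXCL12 had no read in any LR library. CXCL12 had measured 29, 27.3 and 28.8 in Control. SIAH2, a ubiquitin ligase, measured 203, 208 and 218 in Control and 49.4, 29.8 and 34.9 in LR. IL6ST, the shared receptor of the IL-6 family, measured 77.8, 78.8 and 60.4 in Control and 1.06, 2.88 and 2.18 in LR. The median of the 22 genes was -4.10, the lowest of all lists. Among the members not called, the corepressor gene NRIP1 was above Control, at 101, 103 and 88.3 in Control and 303, 307 and 232 in LR. ESR1 was 93.5, 101 and 122 in DTP and 16.7, 6.88 and 0.842 in DTEP, and the comparisons of DTP, DTEP and LR against Control share the Control libraries.

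Among 18 transcription factors listed for luminal breast cells, 4 were called higher and 2 lower, and by adjusted p alone 9 were higher and 3 lower. GATA3, which specifies luminal cells, measured 189.5, 183 and 198 in Control and 1270.3, 1572 and 909.8 in LR (log2 change 2.68 ± 0.19, adjusted p = 2.63e-05). TRPS1, a GATA-type repressor used as a breast marker, measured 341, 364 and 317 in Control and 1679, 1319 and 1263 in LR. TRPS1 was at the threshold and was not called without the first LR library (log2 change 1.92) or the third Control library (1.996). TFAP2B and BHLHE40, both among the 12 largest rises, were the others called higher. BHLHE40, a clock repressor, was not read as a marker of luminal identity, but the counts and median of the list include it. FOXA1, a pioneer factor of luminal cells, measured 397, 405 and 380.1 in Control and 939.6, 790.1 and 666 in LR. XBP1, a factor of secretory cells, measured 1010.3, 1050.2 and 1019 in Control and 3994, 3751 and 2939.7 in LR. Both were above every Control value but not called. ELF5, a factor of luminal progenitors, fell to at most 2 reads per LR library from 38.8, 41 and 38.2. TFAP2C, another AP-2 family member, which lies on 20q13, fell from 244, 243 and 242 to 64.8, 55.6 and 55.9. Among AP-2 genes TFAP2B thus rose, TFAP2C fell, and TFAP2A, at 97, 98.4 and 92 in Control and 226, 185 and 153 in LR, was not called. The median of the list was 0.49.

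Androgen response and apocrine genes split. FKBP5, a chaperone and direct androgen and glucocorticoid target, measured 0.506, 0.544 and 0.419 in Control and 53.6, 39.4 and 72.4 in LR (log2 change 5.19 ± 0.22, adjusted p = 2.46e-06). Also called higher were PIP, CLCA2 and ABCC11, which are known from apocrine epithelium, besides AZGP1. PIP measured 1.89, 3.04 and 2.61 in Control and 15, 17.8 and 19.2 in LR. CLCA2 measured 58, 63.6 and 59.9 in Control and 2141, 1697 and 2634 in LR. ABCC11 measured 71.5, 69.3 and 76.7 in Control and 379, 271 and 466 in LR. Other apocrine products were called lower. ALOX15B, a lipoxygenase, fell from 98.8, 96.2 and 102 to 0.127, 0 and 0.0484. DHRS2, a dehydrogenase, fell from 311, 301 and 327 to 0.507, 0.719 and 1.36. MUCL1, SCGB1D2, SCGB2A2 and TCN1, all secreted proteins, were called lower as well. In total 6 of 19 tested genes were called higher and 7 lower, with a median of -0.25 that became 0.74 when only genes with a mean of at least 5 were kept. The list had no single direction.

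**Figure D4:**
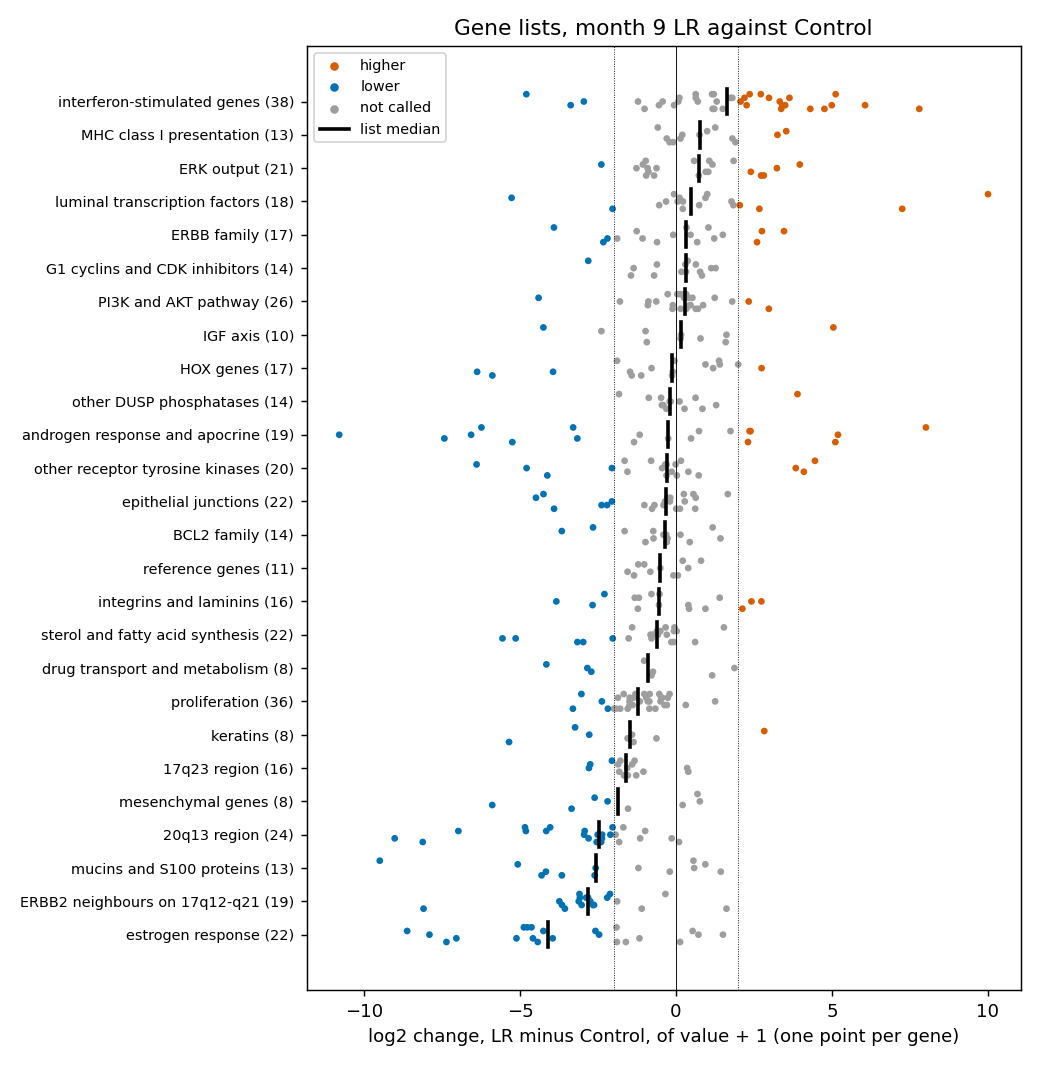
Log2 change of value plus 1, LR minus Control, for the tested members of 26 gene lists (number of genes in brackets), one point per gene, with the list median as a black bar and dotted lines at the thresholds of -2 and 2. Estrogen response genes have the lowest median, -4.10, and interferon-stimulated genes the highest, 1.62.

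Of 22 tested junction genes of epithelia 6 were called lower, 4 of them desmosomal, and none higher, and by adjusted p alone 10 were lower and 5 higher. CDH1 measured 1094, 1135 and 1146 in Control and 73.5, 91.1 and 60.6 in LR (log2 change -3.91 ± 0.14, adjusted p = 1.39e-06). CDH3, P-cadherin, measured 38.5, 38.8 and 41.5 in Control and 3.55, 4.54 and 25.8 in LR. In desmosomes, the junctions that anchor keratin filaments, both plaque and cadherin genes fell. DSP, the plaque protein desmoplakin, measured 928, 944 and 972 in Control and 99.7, 97.5 and 6.64 in LR. PKP2, another plaque protein, measured 42.5, 40.9 and 43.3 in Control and 1.86, 0.719 and 1.41 in LR. DSG2, a desmosomal cadherin, measured 228, 228 and 223 in Control and 56.8, 34.4 and 79.4 in LR. CDH3 was not called without any one of the libraries other than the third LR library (log2 changes between -2.23 and -1.73), nor by DESeq2 (-1.85) or edgeR (-1.81). DSG2 was not called without the second LR library (-1.74) or by edgeR (-1.998). DSC2 was the other desmosomal cadherin gene called. None of 10 tight junction genes was called. The median of the list was -0.31. Of 15 listed mesenchymal genes 8 were tested, and 4 of these were called lower and none higher. By adjusted p alone 5 were lower and 2 higher. VIM, the mesenchymal filament vimentin, had no read in LR after 59.4, 57.8 and 57.6 in Control. TWIST1, a repressor of epithelial genes, had none after 10.2, 8.21 and 9.18. FN1 and S100A4 fell too, FN1 not without the second LR library (log2 change -1.98). The list median was -1.86, or -2.40 with absent genes at the bound that 3 reads give, and it was -4.32 by DESeq2, -4.25 by edgeR and -3.68 with a pseudocount of 0.1. ZEB1, a repressor of CDH1, measured 0.322, 0.217 and 0.326 in Control and 1.35, 1.16 and 1.07 in LR and was not called (log2 change 0.77), but it was called higher by DESeq2 (2.001, adjusted p = 0.00133) and edgeR (2.01, adjusted p = 0.000499).

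Of 8 tested keratins 1 was called higher and 3 lower. Among the 5 listed as luminal, KRT7, KRT8, KRT18 and KRT19 were not called, all 4 being lower by adjusted p, and KRT23 was called higher. KRT8 measured 989, 936 and 1036 in Control and 295, 503 and 256 in LR. KRT19 measured 1114, 1066 and 1185 in Control and 407, 631 and 293 in LR. Both were below Control without overlap, and the median over the 8 was -1.48. KRT23 measured 0, 0.0544 and 0.0466 in Control and 5.45, 2.77 and 15.4 in LR. KRT15, KRT4 and KRT80 were called lower, KRT15 from 58, 55.6 and 55.6 to 0.127, 1.16 and 0.145. Of 16 tested integrin and laminin genes, ITGA2, ITGA6 and LAMB2 were called higher. ITGA2 and ITGA6 are alpha chains of collagen and laminin receptors, and LAMB2 is a laminin chain. ITGA2 measured 29.8, 33.5 and 30.2 in Control and 136, 142 and 141 in LR. ITGA6 measured 55.9, 56.7 and 53.2 in Control and 440.2, 277 and 431 in LR. LAMB2 measured 99.1, 96.8 and 98.1 in Control and 568, 472 and 553 in LR. ITGB6, LAMA3 and LAMB1 were called lower, LAMB1 from 143, 141 and 145 to 16.9, 13.7 and 43. The median of the list was -0.53, or 0.41 when only genes with a mean of at least 5 were kept. Mucins and S100 proteins held 7 genes called lower of 13 tested and none called higher, with a median of -2.57, or -4.22 by DESeq2 and -4.19 by edgeR. MUC1, a transmembrane mucin, fell from 36.8, 34.5 and 39.2 to 2.2, 2.49 and 1.41. MUC5B, a gel-forming mucin, fell from 78.4, 65.3 and 75.7 to 0.211, 1.22 and 2.96. The calcium-binding S100A6 fell from 212, 205 and 224 to 10.8, 17 and 6.98.

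Among HOX genes, which record position along the body axis, only members of the HOXB cluster were called. HOXB7, HOXB9 and HOXB13 had 1 read each over the 3 LR libraries. In Control, HOXB7 measured 60.5, 60.1 and 56.2. HOXB13 measured 81.5, 78.4 and 89.8 in Control. HOXB2 was called higher, with 0.046, 0 and 0.0466 in Control and 6.8, 8.74 and 3.34 in LR. HOXB3, at 0.092, 0.0544 and 0.14 in Control and 4.82, 2.71 and 2.86 in LR, had a log2 change of 1.996 on the scale of value plus 1 and was not called, but was called higher by DESeq2 (5.12), by edgeR (5.07) and with pseudocounts of 0.1 (4.16) and 0.5 (2.70). It was also called without the third Control library (2.03), without the second LR library (2.11) or without the third (2.09). All 6 tested HOXB genes were at 3 reads or fewer in each library of 1 of the 2 groups. None of the 8 tested HOXC genes was called, and HOXC10 measured 62, 63.3 and 67.6 in Control and 143, 177 and 129 in LR. By adjusted p alone 4 HOXC genes were higher and 1 lower. The 1 HOXA and 2 HOXD genes tested were lower by adjusted p and not called, from low summed levels of at most 1.35 and 5.60 in Control. Over all 17 tested HOX genes 1 was called higher (5.88%), near the 5.25% of all genes, and 3 lower (17.6%, against 8.13%), with a median of -0.12. None of 15 cancer-testis antigen genes passed the filter.

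Interferon-stimulated genes held the largest number of members called higher of any list. These genes are switched on when interferon receptors activate a complex that holds STAT2 and IRF9 and binds the interferon-stimulated response element in their promoters. Of 38 tested genes 17 were called higher, 44.7% against 5.25% of all genes, 3 were called lower, and the median was 1.62. The element was looked for as GAAA, any 2 bases and GAAA on either strand in the RefSeq promoters (250 bases before to 50 after the gene start, GRCh38.p14), which the reference table held for 10312 of the tested genes and 29 of the 38. It was present in 18 of these 29 promoters (62.1%), in 8 of the 12 available promoters of members called higher (66.7%) and in 2.57% of the promoters of all tested genes. Promoters of all genes called higher held it in 4.53% and those of genes called lower in 2.48%. Stretches of 30 bases around a match are shown for 4 members called higher and for IFITM3, which was called lower and holds the letters as well. Each is written 5′ to 3′ along its gene, with the match in capitals. In ISG15 and BST2 the match shown overlaps a second match. In IFIT1 the match is on the other strand, so its capitals are the reverse complement.
ISG15 (chr1:1013380-1013409, plus strand): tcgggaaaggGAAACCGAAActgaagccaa
IFIT1 (chr10:89392510-89392539, plus strand): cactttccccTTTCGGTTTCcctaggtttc
IFI6 (chr1:27672288-27672317, minus strand): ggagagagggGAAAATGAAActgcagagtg
BST2 (chr19:17405735-17405764, minus strand): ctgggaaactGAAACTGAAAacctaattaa
IFITM3 (chr11:320876-320905, minus strand): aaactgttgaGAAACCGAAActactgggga
A match is a description of letters and not a measured binding site. The estrogen response element, as GGTCA, any 3 bases and TGACC, was in 2 of the 10312 promoters (0.0194%) and in none of the called ones, and the E2F letters TTTCGCGC were in 1.02% of all, 0.566% of those called higher and 0.62% of those called lower.

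IFIT1, a sensor of foreign RNA caps, measured 0.23, 0.652 and 0.373 in Control and 306, 84.5 and 30.7 in LR (log2 change 6.06 ± 0.75, adjusted p = 0.000357). IFI6, an inhibitor of apoptosis, measured 1.29, 1.69 and 1.3 in Control and 239, 86 and 27.6 in LR (log2 change 5.12 ± 0.70, adjusted p = 0.000573). The ubiquitin-like ISG15 measured 1.24, 0.598 and 1.16 in Control and 35.1, 19.9 and 10.5 in LR. All LR values of these genes were above Control, and the first LR library was the highest. OAS1, which makes the activator of RNase L, measured 0.138, 0.217 and 0.466 in Control and 89.1, 36 and 11.1 in LR. RIGI, a sensor of double-stranded RNA, measured 11.3, 10.3 and 11.7 in Control and 280.3, 85.1 and 87 in LR. UBE2L6, the conjugating enzyme for ISG15, measured 0.184, 0.272 and 0.326 in Control and 82, 22.4 and 32.5 in LR. Of the factors that carry the interferon signal, IRF9 was called higher, at 20, 18.6 and 19.5 in Control and 163, 113 and 60.6 in LR. In 15 of the 17 genes called higher the first LR library was the highest, and the median log2 difference of the 38 genes to Control was 2.75, 1.15 and 1.08 in the 3 LR libraries. IFITM3 was called lower, from 9.75, 9.51 and 10.7 to 0.127, 0 and 0.0484, as were IFI35 and MX2. MX2 went from 36.1, 37 and 39 to 0.507, 0.664 and 0.0484. IFITM2 and IFITM3 are close copies of each other and reads may be split between them, so their values are uncertain. Set beside LR, the median differences to Control in DTEP were -0.09, -0.07 and -0.13, with the same Control libraries. In DTEP, BST2 measured 282, 242 and 154. IRF7 measured 28.7, 30.6 and 33.1 there. IFIT1 measured 1.05, 1.32 and 3.14 there, far below each LR value.

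In antigen presentation by MHC class I, 2 of 13 tested genes were called higher (15.4%) and none lower, against 5.25% and 8.13% of all genes. The peptide trimmer ERAP2 was among them and measured 3.13, 1.69 and 3.17 in Control and 35.1, 21.9 and 47.5 in LR. B2M, the common light chain, measured 124, 129.8 and 117 in Control and 641, 393 and 400.2 in LR and was not called, except without the second (log2 change 2.03) or the third LR library (2.02), and the median of the list was 0.76.

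Of 36 tested genes of DNA replication and mitosis 4 were called lower and none higher, and by adjusted p alone 22 were lower and 1 higher, against 36.8% and 35.5% of all genes. CDC6, which loads the replicative helicase, measured 123, 125 and 128 in Control and 14.7, 4.21 and 24.6 in LR (log2 change -3.30 ± 0.53, adjusted p = 0.00132). TYMS, the thymidylate synthase, measured 207, 205 and 220.0 in Control and 32.4, 9.02 and 50.9 in LR (log2 change -3.03 ± 0.56, adjusted p = 0.00242). MCM7, a helicase subunit, measured 616, 596 and 633 in Control and 163, 58.6 and 255 in LR and was not called without the second LR library (log2 change -1.59), by DESeq2 (-1.996) or by edgeR (-1.96). CCNE1, cyclin E1, measured 17.2, 18.5 and 19.2 in Control and 2.11, 1.55 and 5.47 in LR. The second LR library was the lowest in each of these 4 genes and in 27 of the 36, and the third was the highest in 31. Median log2 differences to Control over the list were -1.21, -1.78 and -0.60 in the 3 LR libraries, and -1.23 over the group means. They were -4.19, -4.04 and -3.97 in DTP and 0.46, 0.65 and -0.13 in DTEP, against the same Control libraries. The E2F letters stood in 5 of the 27 promoters available for these genes (18.5%). MKI67, the Ki-67 antigen, measured 221, 221 and 229.8 in Control and 255, 207 and 413 in LR and was not called. NUSAP1, a spindle protein, was the 1 gene higher by adjusted p alone, at 52.7, 51.6 and 50.8 in Control and 141, 77 and 179 in LR. Among 14 tested G1 cyclins, their kinases and inhibitors, CDK6 alone was called, with 46.5, 48.8 and 36.1 in Control and 5.41, 4.26 and 6.54 in LR. CCND1, cyclin D1, measured 399, 385 and 363 in Control and 277, 143 and 327 in LR and was not called.

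**Figure D5:**
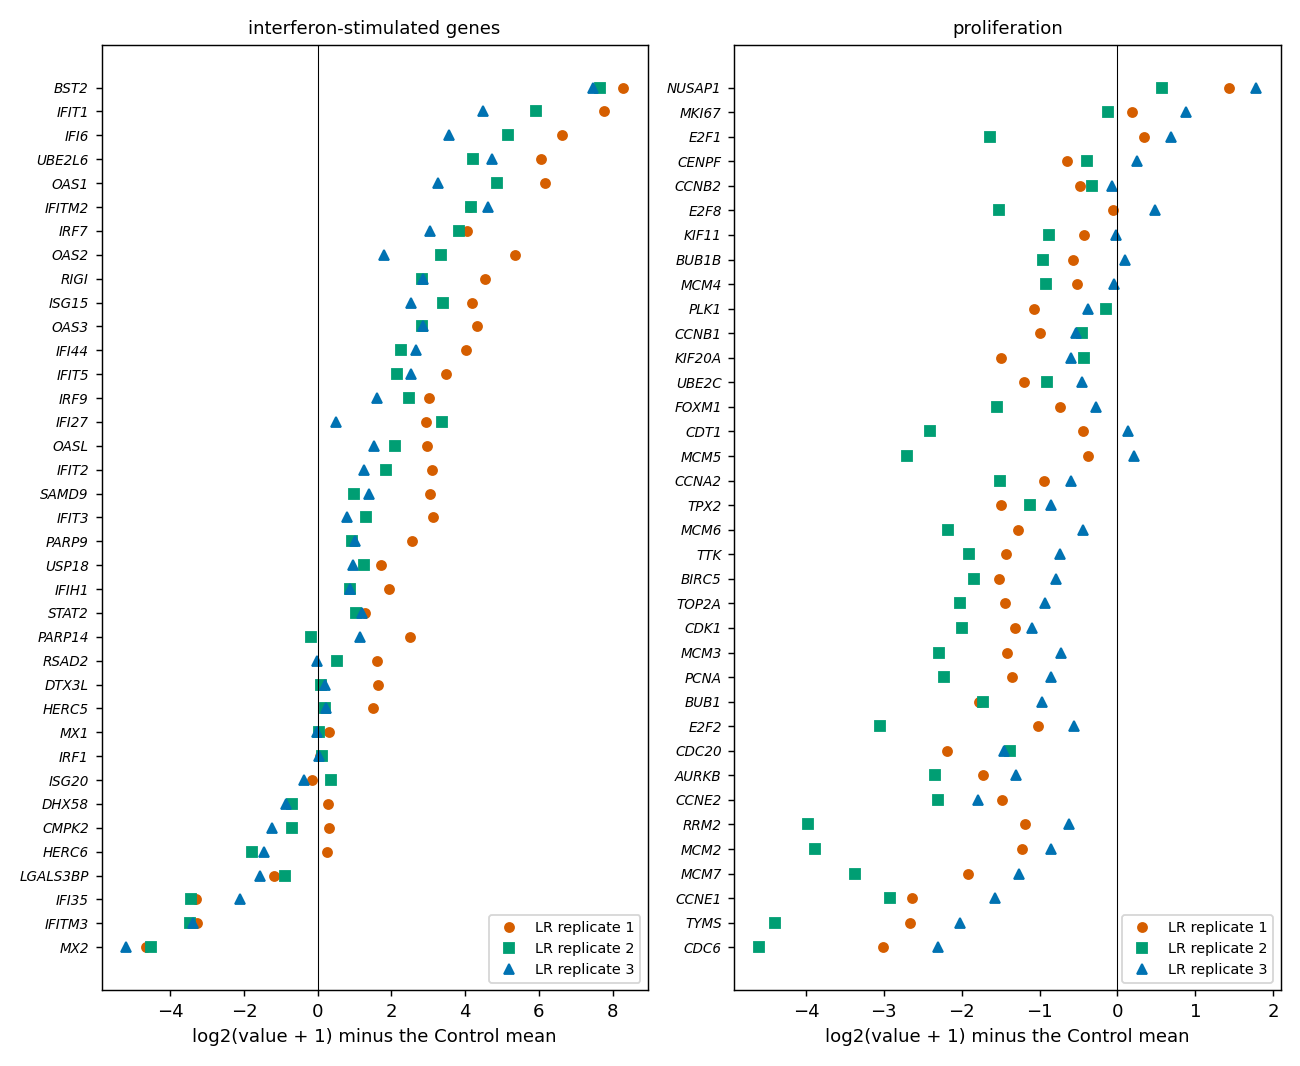
Difference of log2(value + 1) to the Control mean in each of the 3 LR libraries for interferon-stimulated genes (left, with 1 member not drawn) and 36 proliferation genes (right), 1 row per gene. LR replicate 1 is the highest in 31 of the 38 interferon-stimulated genes, and LR replicate 2 is the lowest in 27 of the 36 proliferation genes.

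Of 9 tested fatty acid genes 4 were called lower and none higher, and by adjusted p alone 6 were lower and 1 higher. ACACA, the carboxylase that commits carbon to fatty acid synthesis and lies on chromosome 17, measured 1329, 1374 and 1395 in Control and 117, 167 and 179 in LR (log2 change -3.16 ± 0.16, adjusted p = 5.57e-06). The desaturase gene FADS2 measured 748, 765 and 796 in Control and 11.9, 10.6 and 28 in LR. FADS1, its neighbour, measured 187, 186 and 168 in Control and 16.4, 16.1 and 40.2 in LR. ME1, the cytosolic malic enzyme, had no read in LR after 33.5, 37 and 32.4. STARD4 was the 1 sterol gene called, lower, of 13 tested, and was not called without the first LR library (log2 change -1.65) or without the first or second Control library (-1.99 and -1.92). In all, 5 of 22 genes were called lower and none higher, with a median of -0.59. FASN, fatty acid synthase, measured 1156, 1027 and 1223 in Control and 536, 919 and 541 in LR and was not called.

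Of 14 tested BCL2 family genes, the survival gene BCL2 and the death gene PMAIP1 were called lower, 14.3% against 8.13% of all genes, and none higher. BCL2, itself an estrogen target, measured 47.1, 45.9 and 40.5 in Control and 7.82, 7.53 and 3.97 in LR (log2 change -2.66 ± 0.23, adjusted p = 6.75e-05). PMAIP1, which encodes NOXA, measured 18.3, 18.9 and 17.1 in Control and 0.634, 0.221 and 0.727 in LR. BCL2L11, which encodes BIM, measured 79.5, 83.2 and 77.7 in Control and 243, 253 and 167 in LR, above Control and not called. The median was -0.36, or -0.57 without the second LR library. Among the listed efflux pumps and oxidising enzymes ABCC2, ABCC3 and CYP1A1 were called lower of 8 tested and none higher, with a median of -0.90. The list leaves out other ABCC genes that rose. ABCC11 was called higher among the apocrine genes. ABCC6 was switched on, with 0.0870%, 0.103% and 0% of its LR mean in Control. ABCC2 measured 45.6, 48.7 and 49.1 in Control and 4.22, 8.19 and 5.57 in LR. ABCC3 measured 309, 307 and 331 in Control and 7.22, 11.1 and 55.4 in LR. CYP1A1, which oxidises aromatic compounds, measured 7.36, 6.41 and 7.13 in Control and 0.0845, 0.111 and 0.484 in LR. CYP1A1 was 79.8, 56.8 and 1.18 in DTEP. ABCC5, an organic anion pump, measured 393, 411 and 399 in Control and 951, 1633 and 465 in LR and was not called.

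Changes were not of equal size in the 3 LR libraries. Among the 1767 called genes 86 had a range over 2 on the log2 scale across the LR libraries, 28 of those called higher and 58 of those called lower. No tested gene had such a range across the Control libraries, and 218 of all tested genes had it across LR. The 5 with the largest range were called lower. MGP, a matrix protein, measured 200.4, 205 and 218 in Control and 2.41, 0.498 and 106 in LR (log2 change -4.67 ± 1.47, adjusted p = 0.0253). CRIM1, a membrane binder of BMPs, measured 31, 27.7 and 27.1 in Control and 0.676, 0.609 and 19.7 in LR. WLS, the WNT carrier, measured 129.5, 125 and 121 in Control and 0.549, 0.664 and 18.8 in LR. COL12A1, a collagen chain, measured 630.3, 603 and 584 in Control and 6.29, 6.75 and 91.9 in LR. In these 4 genes the third LR library stood highest, still below every Control value. The fifth, DSP, was lowest in the third LR library. Neither MGP nor CRIM1 was called when any library but the third LR library was left out, with log2 changes between -4.70 and -3.45 for MGP and between -2.99 and -2.33 for CRIM1. By edgeR MGP had a log2 change of -2.52 (adjusted p = 0.16) and CRIM1 one of -2.03 (adjusted p = 0.15).

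Of 11 genes often used as references none was called, and the list had a median of -0.50. ACTB, beta-actin, measured 2475, 2469.6 and 2562 in Control and 964, 853 and 1161 in LR. PPIA, cyclophilin A, measured 212, 212 and 219.8 in Control and 66.9, 64.5 and 88.6 in LR. Both were below Control without overlap. Reference genes were thus not level between the groups, and by adjusted p alone 2 were higher and 6 lower. Beside the LR change, the 693 genes called higher had a median log2 difference to Control of 0.00 in DTP, 2.50 in DTEP and 2.74 in LR. For the 1074 genes called lower the medians were -0.35, -2.52 and -2.95. Those comparisons share their Control libraries, and the LR medians were fixed by the choice of genes.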

How the data were processed

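RNA from BT474 cells was sequenced as stranded mRNA libraries. The authors aligned and counted reads against hg38 and RefSeq genes with Rsubread at default settings, so that strand was not used and overlapping genes cannot be told apart. The processing notes name bcl2fastq and edgeR. The deposited values are a signal, the reads per gene divided by library size scaled by TMM, here called normalised read count. Whole reads were recovered for 100% of 199680 values above 0 (tolerance 1e-06 of a read), and depths ran from 18619398 to 24545527 assigned reads in the 6 libraries, so precision is limited by the number of libraries and not by depth except near 3 reads. Every column of the table matched a library.

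Values were tested as log2(value + 1) with limma 3.58.1 in R 4.3.3 (trended moderation, two-sided, Benjamini-Hochberg over all 13205 genes) on the 6 libraries, and ± gives the SE of a log2 change. A fold on this scale understates the change of low genes. A called gene had an adjusted p below 0.05 and a log2 change beyond 2. Gene lists, switched genes, 2 Mb windows and motifs were described by counts and medians with no test, and folds against absent genes used a floor of 3 reads per library. Coordinates were RefSeq's on GRCh38.p14, for 25350 of 26485 genes. The members and lists were chosen with earlier results of these data known. Named genes were the 12 largest and 12 smallest changes and the 8 highest switched genes each way. Up to 4 genes in each of 6 windows, list members and the 5 genes with the largest LR range were also named. Genes without a symbol or with a LOC symbol were left unnamed. Some list members are not reported here, and the counts include them.

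Alternatives were pseudocounts of 0.1 and 0.5, no filter, a mean of at least 5, no trend, all 12 libraries, a weight per group, median-of-ratios scaling, edgeR 4.0.16 (quasi-likelihood) and DESeq2 1.42.0 on recovered reads, a replicate block, a log2 threshold of 1, 0 reads or a value of 5 for switched genes, 5 Mb windows, and leaving out each library. The tests were tried on simulated counts. Tables were made with Python 3.11.15 and pandas 2.3.3.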

Additional observations from a re-analysis of the deposited data

How the results depend on the processing

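The 693 higher and 1074 lower calls ran from 594 to 972 and from 778 to 1589 over the other settings that kept the log2 threshold of 2, and from 672 to 705 and from 1028 to 1155 with each library left out. With a threshold of 1 there were 2299 and 2649. With the replicate numbers as a block the counts were 693 and 1074. Same-numbered Control and LR libraries did not deviate together (r = 0.11, -0.09 and 0.03). Different-numbered pairs had r from -0.23 to 0.17. Whether the numbers mark the same plates cannot be told from these r.

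Most list medians moved by less than the spread between libraries. Others moved more, and their values are given in the order DESeq2, edgeR, pseudocount 0.1 and pseudocount 0.5. The genes around ERBB2 gave -3.15, -3.12, -3.13 and -3.03, 20q13 gave -2.77, -2.73, -2.75 and -2.74, mesenchymal genes -4.32, -4.25, -3.68 and -2.43, mucins and S100 proteins -4.22, -4.19, -3.81 and -3.003, and VWF -6.21, -6.09, -5.28 and -3.80. Estrogen response gave -4.79, -4.76 and -4.38 and CD68 -0.63, -0.59 and -0.51 under the first 3. The other DUSP genes gave -0.24 by DESeq2, and the G1 list 0.37 by edgeR and 0.28 by median-of-ratios scaling. With a mean of at least 5 the medians were 0.58 for the ERBB family, -2.38 for 20q13, -4.34 for estrogen response, 0.74 for apocrine genes, -2.60 for mesenchymal genes and 0.41 for integrins and laminins. With each library left out they ran from -0.016 to 0.36 for the ERBB family, from -2.53 to -2.41 for 20q13, from -0.21 to -0.14 for other DUSP genes, from 0.10 to 0.25 for the IGF axis, from 0.21 to 0.37 for the G1 list, from -0.57 to -0.28 for the BCL2 family, from -2.66 to -2.41 for mucins and S100 proteins and from -0.51 to -0.17 for CD68.

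Requiring 0 reads in the low group left 259 genes switched off and 44 on, and a value of 5 or more in the high group left 253 and 61. In windows of 5 Mb the lowest and highest medians were -2.12 and 1.78. For none of these was the cause tested. Depth limits values near 3 reads.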
